A study of Mus musculus with 8 samples.

Results

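Potassium channel genes were taken as the genes whose symbol begins with Kcn in the array's annotation. A total of 73 genes of the 14860 genes named on the array met this rule, from 74 probe sets, and a gene with more than 1 probe set was read from the one that was brightest on average across the 8 arrays. They divide by symbol into 27 voltage-gated pore subunits, 14 inward rectifiers, 10 two-pore-domain channels, 6 calcium- or sodium-activated channels and 16 auxiliary or interacting proteins.

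The arrays measured RNA of the tibialis anterior, a muscle of mostly fast fibres at the front of the shin, from male mice aged 8 weeks in which ATF4, a stress-responsive transcription factor, was deleted in skeletal muscle; the deletion was shared by both groups. In 4 samples the right muscle had received pCMV-FLAG-Gadd45a, a plasmid that encodes the tagged stress protein Gadd45a behind the CMV promoter, which is active in many cell types. In 4 samples the left muscle had received the empty plasmid pcDNA3. Muscles were harvested on day 7. Plasmid and side of the body cannot be told apart, nor can Gadd45a itself and the production of some tagged protein, since the control plasmid was empty. The promoter that drove the ATF4 deletion and the share of fibres that took up plasmid are not given in the sources used here. Nothing in the labels states that the samples of a group were separate mice, so the p-values rest on the spread between arrays, some of which may be technical.

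Potassium channels let potassium leave or enter a cell and so set its membrane potential. In a muscle fibre, inward rectifiers hold the resting potential and take potassium back from the transverse tubules, voltage-gated channels help to end each action potential, and ATP-sensitive channels open when energy runs low. Calcium-activated channels of the SK type are scarce in innervated adult fibres and are known to appear in fibres that have lost their nerve. Voltage-gated pores are assembled from subunits that can be modified by silent subunits and by small auxiliary proteins.

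Values are log2 intensities, so a difference of 1 is a doubling of signal. A change is the mean with Gadd45a plasmid minus the mean with control plasmid, with the moderated standard error (SE) of limma, a linear model fitted to every probe set at once. P-values were adjusted by the Benjamini-Hochberg method over all 16755 probe sets, and a gene was called changed at an adjusted p under 0.05. The transfected gene, Gadd45a, averaged 10.33 ± 0.12 in muscles with Gadd45a plasmid and 7.76 ± 0.08 in muscles with control plasmid (SD, n = 4 each), a change of 2.57 (SE 0.08, limma adjusted p = 7.74e-07). An exact two-sided permutation test of Gadd45a over the 70 labellings of the arrays gave p = 0.0286, the smallest they allow. Atf4, the gene deleted in both groups, averaged 7.49 ± 0.10 with Gadd45a plasmid and 6.95 ± 0.09 with control plasmid (SD, n = 4 each), a change of 0.54 (SE 0.08, limma adjusted p = 0.00136) with groups that did not overlap. Which part of Atf4 was removed is not stated, and RNA of other cell types was measured too, so this probe set does not check the deletion. The fast-fibre troponin gene Tnnt3 and the skeletal actin gene Acta1 were bright on both sets of arrays, at 12.51 and 12.13 with Gadd45a plasmid and 12.52 and 12.20 with control plasmid; both are defining genes of skeletal muscle. Array medians ran from 5.85 to 5.92, and correlations between arrays from 0.986 to 0.989 within the Gadd45a group, from 0.979 to 0.986 within the control group and from 0.963 to 0.975 between groups.

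Of the 73 potassium channel genes, 14 changed, 2 higher and 12 lower with Gadd45a plasmid. Over all genes with 1 probe set each, 21.6% changed, so the share of channel genes called, 19.2%, was near that of the array. The directions were less even than on the array. Among the channels 2.74% were called higher and 16.4% lower, against 11.1% and 10.5% of all genes. The count called lower was 7 without Gadd45a 4, 5 without the arrays numbered 2, and 6 without those numbered 3 or 4, while the 2 called higher stayed. The genes called higher were Kcnn3 and Kcnrg, and those called lower were Kcna7, Kcnn2, Kcnj12, Kcnj8, Kcnj2, Kcnc1, Kcng4, Kcnc4, Kcnj11, Kcnmb2, Kcne4 and Kcnip1. The groups did not overlap in 18 channel genes (24.7%), 2 higher and 16 lower, against 27.5% of all genes. None of the channel genes changed as much as 2-fold, and only 168 of all 14860 genes did. The extremes among the channel genes were 0.91 for Kcnn3 and -0.85 for Kcna7.

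**Figure D1:**
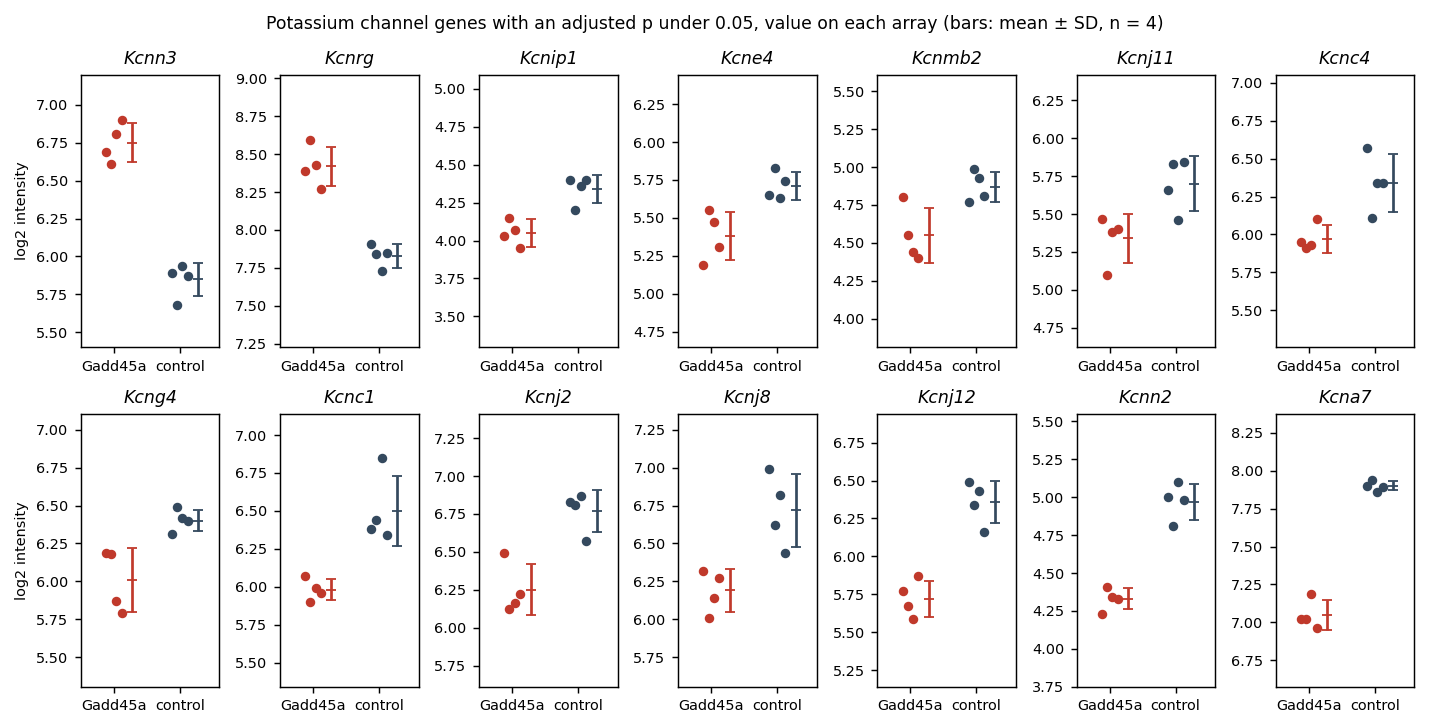
Log2 intensity of the 14 called potassium channel genes on each array, with 1 point per array, Gadd45a plasmid in red on the left and control plasmid in dark blue on the right of each panel, and the mean ± SD (n = 4) beside the points. Panels are ordered by change, from Kcnn3 (0.91) to Kcna7 (-0.85), and each spans the same range of log2 units; only Kcnmb2 and Kcnj11 have groups that overlap.

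Most channel genes gave dim signals. The arrays came with no detection calls, so the 801 probe sets of olfactory and vomeronasal receptors, which muscle should hardly express, were used as a scale. Their 95th percentile lay at a mean of 5.74, and 53 of the 73 channel genes lay below it. Dim probe sets read lower as a class with Gadd45a plasmid: the median change was -0.15 for the receptor probe sets and -0.12 for the 6647 genes below that level, against 0.01 for the 8213 genes at or above it. The median was -0.17 for the 53 dim channel genes and -0.22 for the 20 brighter ones. Small negative values of dim channels thus stood beside those of dim probe sets of every kind, and the part of this shift in them was not tested. After cyclic loess, an intensity-dependent scaling, the median of the dim channels was -0.06 and that of all dim genes -0.02, while the brighter channels stayed at -0.19. Of the 20 brighter channels 2 changed higher and 7 lower (45%), where 29.6% of all genes as bright changed, 1393 higher and 1038 lower of 8213. Of the 53 dim channels 5 changed, all lower (9.43%), where 11.7% of all dim genes changed, 255 higher and 521 lower of 6647.

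**Figure D2:**
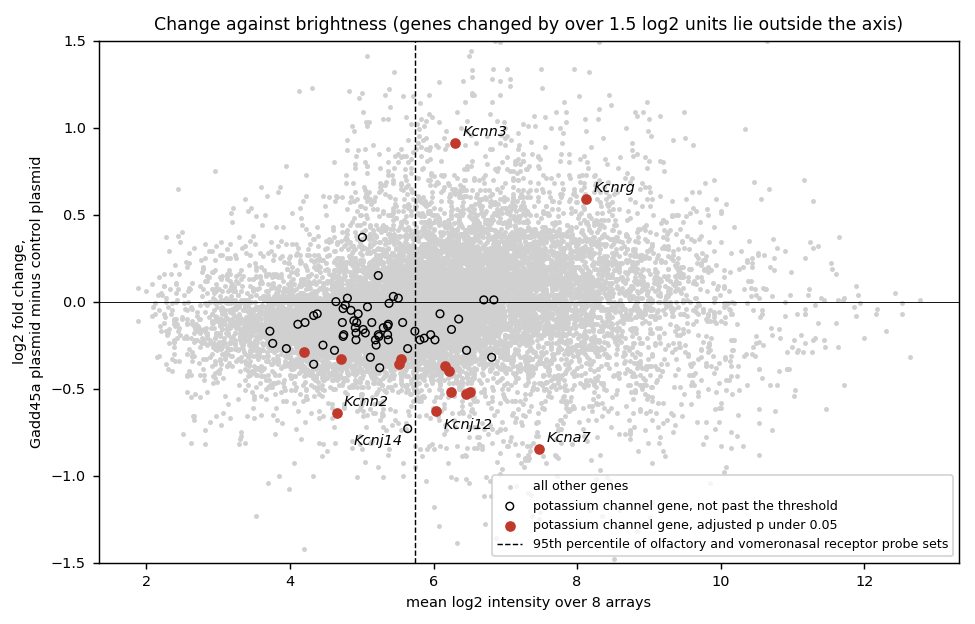
Change of each gene, Gadd45a plasmid minus control plasmid in log2 units, against its mean log2 intensity over 8 arrays; grey points are all other genes, open circles channel genes not past the threshold, red points the 14 called channel genes, and the dashed line the receptor percentile at 5.74. Of the channel genes, 53 lie left of the line, most of them slightly below 0, and the called genes Kcnn3, Kcnrg, Kcna7 and Kcnj12 lie right of it.

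The promoters of the channel gene with the largest rise, Kcnn3, and of 3 fibre channel genes that fell, Kcna7, Kcnj12 and Kcnj2, are given here because the changes are changes of RNA level and these genes moved in opposite directions in the same muscles. The sequences are RefSeq windows of build GRCm38.p6, 250 bases before to 50 after the gene's start, 5′ to 3′ on the gene's strand. They lie at chr3:89519914-89520213 (plus strand) for Kcnn3, chr7:45405710-45406009 (plus) for Kcna7, chr11:61065554-61065853 (plus) for Kcnj12 and chr11:111065914-111066213 (plus) for Kcnj2. Capitals mark E-boxes, the motif CANNTG that myogenic factors and many other factors can bind; the pattern reads the same on both strands.
Kcnn3: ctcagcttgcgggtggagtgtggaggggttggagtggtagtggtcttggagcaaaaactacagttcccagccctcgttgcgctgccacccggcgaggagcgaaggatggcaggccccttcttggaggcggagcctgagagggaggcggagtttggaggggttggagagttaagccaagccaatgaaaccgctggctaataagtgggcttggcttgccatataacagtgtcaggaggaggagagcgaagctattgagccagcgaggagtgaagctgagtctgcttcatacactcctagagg
Kcna7: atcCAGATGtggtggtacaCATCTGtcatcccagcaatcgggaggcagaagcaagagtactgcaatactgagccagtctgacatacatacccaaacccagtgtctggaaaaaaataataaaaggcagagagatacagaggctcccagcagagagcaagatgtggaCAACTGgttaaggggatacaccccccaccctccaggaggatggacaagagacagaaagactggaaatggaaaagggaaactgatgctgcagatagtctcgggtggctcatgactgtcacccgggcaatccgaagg
Kcnj12: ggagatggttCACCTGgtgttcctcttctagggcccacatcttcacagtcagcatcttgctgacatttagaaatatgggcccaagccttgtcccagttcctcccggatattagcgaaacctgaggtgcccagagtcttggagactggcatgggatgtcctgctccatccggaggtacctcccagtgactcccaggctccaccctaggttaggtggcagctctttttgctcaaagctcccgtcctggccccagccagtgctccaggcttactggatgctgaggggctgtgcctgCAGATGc
Kcnj2: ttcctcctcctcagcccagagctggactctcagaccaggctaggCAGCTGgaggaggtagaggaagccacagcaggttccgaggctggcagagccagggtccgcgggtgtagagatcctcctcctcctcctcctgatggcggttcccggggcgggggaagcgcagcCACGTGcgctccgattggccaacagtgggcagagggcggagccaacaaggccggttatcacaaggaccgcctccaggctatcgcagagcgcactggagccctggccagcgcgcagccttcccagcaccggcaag
These letters occurred 3 times in the Kcna7 window, 2 times each in those of Kcnj12 and Kcnj2, and in no place in that of Kcnn3. The motif is common: 72.3% of all 32851 promoter windows of this length hold it. Windows were found for 58 of the 73 channel genes, and 58 of their 79 windows (73.4%) hold the motif, close to the share over all windows. By call, the motif was in 1 of 2 windows of channel genes called higher, in 11 of 12 of those called lower (91.7%) and in 46 of 65 of those not called (70.8%); these counts are small and were not tested. The narrower E-box CAGCTG, a subset of CANNTG, was present in the Kcnj2 window. It was in 4 of 12 windows of channel genes called lower (33.3%), in 0 of 2 of those called higher and in 15 of 65 of those not called (23.1%). Windows of all channel genes held it in 24.1% and all windows in 16.3%. These counts were not tested either. A match is a description of the sequence and not a bound site.

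Among voltage-gated pore subunits, 4 of 27 fell (14.8%) and 0 rose, with a median change of -0.19. Of all genes, 10.5% fell and 11.1% rose. Kcna7, a Kv1 subunit found mainly in skeletal muscle and heart, gave the highest mean signal of the class, which depends on the probes as well as on the RNA, and fell most. It read 7.02, 7.02, 7.19 and 6.96 in muscles with Gadd45a plasmid, against 7.90, 7.94, 7.86 and 7.89 in muscles with control plasmid. Every Gadd45a array lay well below every control array, by several times the spread within either group. The change was -0.85 (SE 0.07, limma adjusted p = 9.57e-05), a 1.80-fold lower signal, and it was called in all 12 fits that left out 1 array or both arrays of a sample number.

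The Kv3 subunits, which make fast-opening and fast-closing channels, were lower too. Kcnc1 read 6.07, 5.90, 5.99 and 5.96 with Gadd45a plasmid, against 6.38, 6.44, 6.85 and 6.34 with control plasmid. The groups did not overlap, and control 3 stood above the other control arrays. The change of Kcnc1 was -0.52 (SE 0.11, limma adjusted p = 0.01). Its second probe set gave -0.31 (SE 0.14, limma adjusted p = 0.144) with overlapping groups, so the 2 probe sets had the same sign and differed in their calls. Kcnc4, whose protein joins the auxiliary subunit Kcne3 in muscle, read 5.95, 5.91, 5.93 and 6.10 with Gadd45a plasmid, against 6.57, 6.11, 6.34 and 6.34 with control plasmid. The highest Gadd45a array and the lowest control array almost met. Its change was -0.37 (SE 0.10, limma adjusted p = 0.0295), and the call was lost in 9 of the 12 fits with arrays left out, and adjusted p over the 12 ran from 0.0131 to 0.112; it held without Gadd45a 4, without control 2 and without the arrays numbered 2. The call of Kcnc1 was lost without the arrays numbered 2 (adjusted p = 0.0563, with 0.00752 as the lowest of the 12).

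Kcng4, a silent subunit that does not form channels alone and modifies Kv2 pores, read 6.19, 6.18, 5.87 and 5.79 with Gadd45a plasmid, against 6.31, 6.49, 6.42 and 6.40 with control plasmid. The groups came close without overlapping. Its change was -0.40 (SE 0.10, limma adjusted p = 0.0245), and the call was kept in 5 of the 12 fits, those without Gadd45a 1, Gadd45a 2, control 1, control 4 or the arrays numbered 1, with adjusted p up to 0.108 in the others. Kcnh2, the ERG channel, which has been linked to muscle wasting in mice, averaged 5.31 ± 0.17 with Gadd45a plasmid and 5.43 ± 0.16 with control plasmid (SD, n = 4 each). The groups overlapped, and the 95% interval of the change, from -0.37 to 0.11, includes no change. The mean of Kcnh2, 5.37, lay below the receptor percentile. Of the remaining 22 voltage-gated genes, 21 had a negative value and Kcna4 read 0.02; none of these passed the test. In Kcns3, Kcna6 and Kcnh3 the groups did not overlap, with changes of -0.28, -0.25 and -0.19 and limma adjusted p of 0.063, 0.0751 and 0.126. They are named after their values were seen, and Kcna6, with a mean of 4.46, lay below the receptor percentile.

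**Figure D3:**
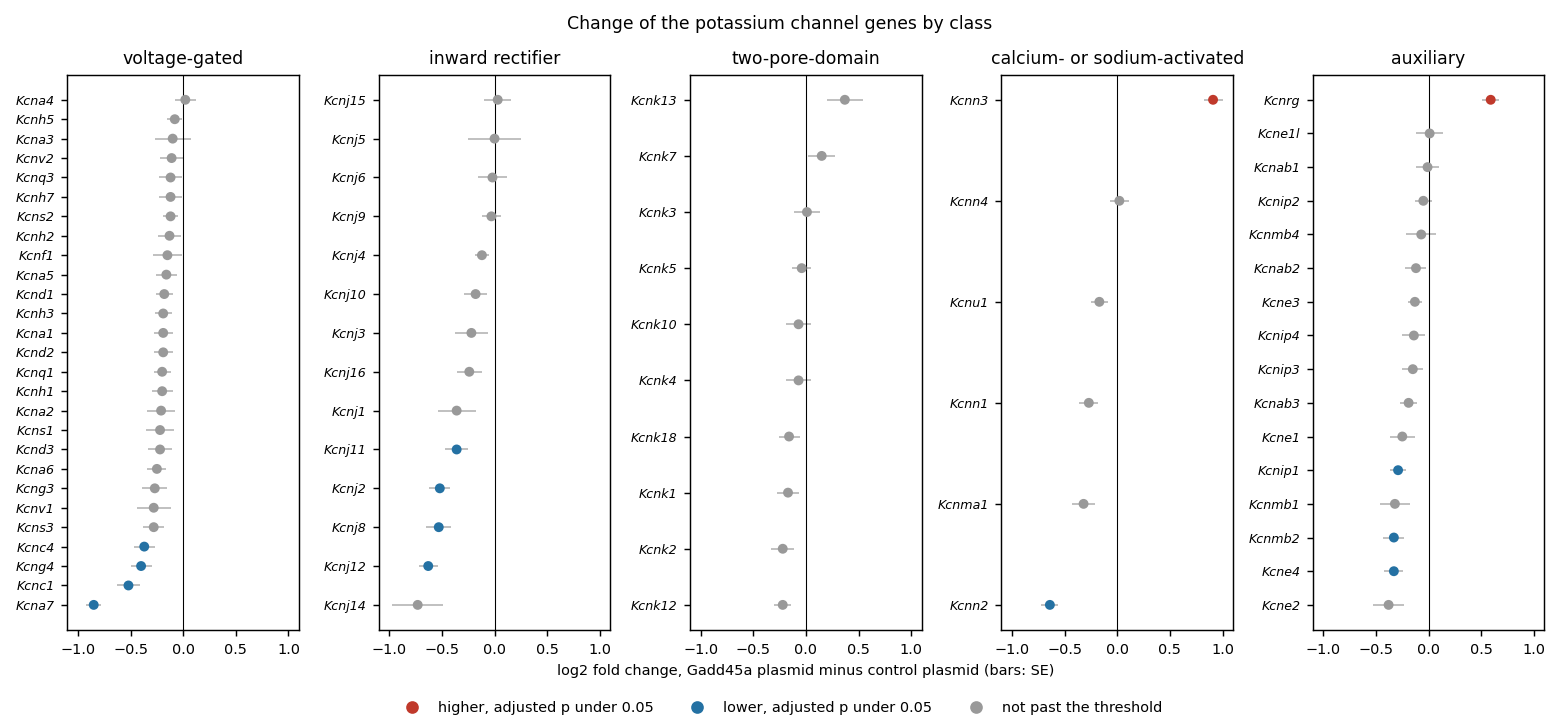
Change of all 73 potassium channel genes in log2 units, Gadd45a plasmid minus control plasmid, with SE bars, in 5 panels by class; red points rose, blue points fell and grey points did not pass the threshold. Nearly all voltage-gated genes lie left of 0, the two-pore-domain genes show no call, and Kcnn3 and Kcnrg are the red points.

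Inward rectifiers included 4 genes that fell (28.6%) and 0 that rose out of 14, with a median of -0.23. Of all genes, 10.5% fell and 11.1% rose. Kcnj2 and Kcnj12 encode Kir2.1 and Kir2.2, the strong rectifiers that hold the resting potential of muscle fibres. Kcnj12 read 5.77, 5.67, 5.59 and 5.87 with Gadd45a plasmid, against 6.49, 6.34, 6.43 and 6.16 with control plasmid. Kcnj2 read 6.49, 6.12, 6.16 and 6.22 with Gadd45a plasmid, against 6.83, 6.81, 6.87 and 6.57 with control plasmid. In both genes all Gadd45a arrays lay below all control arrays, and control 4 was the lowest control. The change was -0.63 for Kcnj12 (SE 0.09, limma adjusted p = 0.00148) and -0.52 for Kcnj2 (SE 0.10, limma adjusted p = 0.00657), a 1.55-fold and a 1.44-fold lower signal. Kcnj12 was called in all 12 fits with arrays left out. Kcnj2 lost its call without the arrays numbered 2 (adjusted p = 0.0539, with 0.00379 as the lowest of the 12).

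The pores of ATP-sensitive channels, Kcnj11 and Kcnj8, were both called lower, Kcnj11 with little margin. Kcnj11 encodes Kir6.2, the pore found in fibres, and read 5.47, 5.10, 5.38 and 5.40 with Gadd45a plasmid, against 5.66, 5.83, 5.46 and 5.84 with control plasmid. Its mean of 5.52 lay below the receptor percentile of 5.74. The groups overlapped slightly, and the change of -0.36 (SE 0.11, limma adjusted p = 0.047) was called in 2 of the 12 fits with arrays left out, without control 3 and without the arrays numbered 3; in the others adjusted p reached 0.199. Kcnj11 also lost its call after median centring, quantile normalization and cyclic loess, and with a term for the sample number (limma adjusted p = 0.0814). Kcnj8 encodes Kir6.1, the pore of vascular smooth muscle and pericytes, and read 6.32, 6.01, 6.14 and 6.27 with Gadd45a plasmid, against 6.99, 6.62, 6.82 and 6.44 with control plasmid. All 4 Gadd45a arrays were below the control arrays. The change was -0.53 (SE 0.12, limma adjusted p = 0.0147), and the call was lost without the arrays numbered 2 (adjusted p = 0.0644) or those numbered 3 (0.0792), with 0.00732 as the lowest of the 12. Abcc9, the SUR2 sulfonylurea receptor that pairs with both pores and whose gene neighbours Kcnj8, read 8.55, 8.53, 8.61 and 8.51 with Gadd45a plasmid, against 9.03, 8.97, 9.14 and 9.11 with control plasmid. Abcc9 fell by 0.51 (SE 0.07, limma adjusted p = 0.000754) with little spread in either group.

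Endothelial markers moved with Kcnj8 and Abcc9, and those of smooth muscle and pericytes were mixed. The mean over 9 of 9 smooth muscle and pericyte markers was 6.72 to 6.83 with Gadd45a plasmid and 6.84 to 7.05 with control plasmid. Of the pericyte markers, Rgs5 fell by 0.58, while Pdgfrb, Cspg4 and Notch3 read 0.09, -0.04 and -0.08 and did not pass. Cnn1, a smooth muscle calponin, fell by 0.51 and the smooth muscle myosin Myh11 by 0.81, while the actin Acta2, which activated fibroblasts also make, rose by 0.82; in all, 1 rose and 3 fell, with a median of -0.08. Of 8 endothelial markers 7 fell and 0 rose, with means of 6.52 to 6.61 with Gadd45a plasmid and 6.88 to 6.95 with control plasmid. Over all genes with 1 probe set each, 11.1% rose and 10.5% fell. In such bulk samples, fewer cells of a type and less RNA per cell cannot be told apart, and the part of vessel cells in the values of Kcnj8 and Abcc9 was not tested. Among the other inward rectifiers Kcnj14, named after its values were seen, had the largest change, -0.73 (SE 0.24, limma adjusted p = 0.0569). It read 5.71, 4.63, 5.66 and 5.12 with Gadd45a plasmid, against 6.15, 5.66, 6.33 and 5.90 with control plasmid, the widest spread of any channel gene with Gadd45a plasmid (SD 0.51). Its mean of 5.64 lay below the receptor percentile, its groups overlapped and it did not pass the test. It was called lower without Gadd45a 1, without Gadd45a 3, with a trended, robust variance and with a term for the sample number.

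Calcium-activated channels moved in opposite directions. Kcnn3 encodes SK3, the small-conductance channel known to appear in denervated fibres, and read 6.69, 6.61, 6.81 and 6.90 with Gadd45a plasmid, against 5.89, 5.68, 5.94 and 5.87 with control plasmid. The lowest Gadd45a array was clearly above the highest control array. The change was 0.91 (SE 0.09, limma adjusted p = 0.000179), a 1.87-fold higher signal, and it held in all 12 fits with arrays left out (0.85 to 0.95). Genes of the denervation response moved with Kcnn3: 10 of 12 measured rose and 0 fell, where 11.1% of all genes rose and 10.5% fell. List means were 7.58 to 7.70 with Gadd45a plasmid and 6.30 to 6.50 with control plasmid. Both the count and the list means include Gadd45a, which the plasmid itself encodes. Hdac4 and Dach2 did not pass, at 0.00 and -0.40, and the groups of Dach2 did not overlap. The acetylcholine receptor subunits Chrna1 and Chrng rose by 1.91 and 1.33 in that list. The part of these responses in the value of Kcnn3 was not tested.

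Kcnn2, which encodes SK2, read 4.234, 4.408, 4.343 and 4.334 with Gadd45a plasmid, against 4.996, 4.807, 5.103 and 4.979 with control plasmid. The groups were well apart, although all values were below the receptor percentile of 5.74. Its change was -0.64 (SE 0.08, limma adjusted p = 0.000615), and it was called in all 12 fits with arrays left out. After cyclic loess the change of Kcnn2 was -0.52 and was still called. Kcnn1, the SK1 gene, did not pass at -0.27 (SE 0.09, limma adjusted p = 0.0557), although its groups did not overlap. Its mean of 5.64 also lay below the receptor percentile. Of these 3 SK genes, SK3 rose, SK2 fell and SK1 was not called. Predicted genes overlap Kcnn2 in the RefSeq table, as they do Kcng4, Kcne4 and Kcnmb2.

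Kcnma1, the pore of the large-conductance BK channel, read 6.84, 6.48, 6.84 and 6.43 with Gadd45a plasmid, against 6.98, 6.88, 7.02 and 7.01 with control plasmid. All Gadd45a arrays lay below the control arrays, but Gadd45a 1 and Gadd45a 3 nearly reached them. The change of -0.32 (SE 0.11, limma adjusted p = 0.0609, 95% interval -0.56 to -0.08) missed the threshold. It passed in 5 of 9 fits with other settings, among them quantile normalization (adjusted p = 0.0286), and over the 12 fits with arrays left out adjusted p ran from 0.0449 to 0.222. Kcnn4, the intermediate-conductance channel of lymphocytes and macrophages, averaged 5.52 ± 0.14 with Gadd45a plasmid and 5.50 ± 0.09 with control plasmid (SD, n = 4 each). Kcna3, the Kv1.3 channel known from the same cells, averaged 6.30 ± 0.40 with Gadd45a plasmid and 6.41 ± 0.10 with control plasmid. The mean of Kcnn4 lay below the receptor percentile. Neither passed, with 95% intervals of the change from -0.17 to 0.22 for Kcnn4 and from -0.49 to 0.28 for Kcna3. Macrophage markers were higher in the same samples: 8 of 10 rose and 0 fell, with list means of 7.83 to 8.08 with Gadd45a plasmid and 7.11 to 7.29 with control plasmid. Of 6 measured T cell markers 2 rose and 0 fell. Shares over all genes were 11.1% higher and 10.5% lower.

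No gene of the two-pore-domain class, whose channels carry background leak currents, was called among 10, where 21.6% of all genes were. Their median change was -0.07. With limma, 1 of the 10 had an unadjusted p under 0.05, as did 2449 genes higher and 3033 lower of all 14860. Kcnk3, an acid-sensitive leak channel, averaged 6.71 ± 0.19 with Gadd45a plasmid and 6.70 ± 0.18 with control plasmid (SD, n = 4 each), with a 95% interval of the change from -0.26 to 0.27. Values in the class ran from -0.22 for Kcnk2 and Kcnk12 to 0.37 for Kcnk13. After dim probe sets were left out, Kcnk12 and the voltage-gated Kcns3 were called lower.

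Among the 16 auxiliary and interacting proteins, 1 rose and 3 fell (25% called, against 21.6% of all genes). Kcnrg, whose product is known in human cells to hold back the assembly of Kv1 channels, gave the highest mean signal of the channel genes. It read 8.39, 8.59, 8.43 and 8.27 with Gadd45a plasmid, against 7.91, 7.84, 7.73 and 7.85 with control plasmid. The groups did not overlap, and the change was 0.59 (SE 0.08, limma adjusted p = 0.00116), held in all 12 fits with arrays left out. In the RefSeq table of assembly GRCm38.p6 the gene overlaps Trim13 and Dleu2, so its probe set may read RNA of these genes. Trim13, which encodes a ubiquitin ligase and has its own probe set, rose by 0.94 (SE 0.23, limma adjusted p = 0.0195). The part of Trim13 in the value of Kcnrg was not tested.

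The 3 auxiliary genes that fell were dim. Kcne4, a single-span subunit that dampens Kv1 currents, averaged 5.38 ± 0.16 with Gadd45a plasmid and 5.71 ± 0.09 with control plasmid (change -0.33, SE 0.09, limma adjusted p = 0.0321). Kcnmb2, a BK subunit that gives the channel inactivation, averaged 4.55 ± 0.18 with Gadd45a plasmid and 4.87 ± 0.10 with control plasmid (-0.33, SE 0.10, limma adjusted p = 0.0446). Kcnip1, a calcium-binding partner of Kv4 channels, averaged 4.05 ± 0.09 with Gadd45a plasmid and 4.34 ± 0.09 with control plasmid (SD, n = 4 each; -0.29, SE 0.08, limma adjusted p = 0.0234). All 3 lay below the receptor percentile, and all 3 lost their calls after quantile normalization and after cyclic loess. Kcnip1 and Kcnmb2 also lost theirs with a trended, robust variance, and Kcnmb2 after median centring and with array weights. A term for the sample number ended the calls of Kcnip1 (limma adjusted p = 0.0624) and Kcnmb2 (0.076) as well. Of the 12 fits with arrays left out, Kcne4 kept its call without Gadd45a 2, Gadd45a 3, control 1 or control 3, and Kcnip1 without Gadd45a 2, Gadd45a 3, control 2, control 3 or the arrays numbered 2. Kcnmb2 kept it without Gadd45a 1 and without the arrays numbered 1, and the largest adjusted p were 0.14, 0.127 and 0.172 for Kcne4, Kcnip1 and Kcnmb2. Part of the Kcnip1 gene overlaps Kcnmb1, the smooth muscle BK subunit, which read -0.32 (limma adjusted p = 0.14). Kcne3, the muscle partner of Kcnc4, averaged 4.05 ± 0.10 with Gadd45a plasmid and 4.18 ± 0.07 with control plasmid, with a 95% interval of the change from -0.29 to 0.04. The mean of Kcne3, 4.11, also lay below the receptor percentile.

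Proteins that work with potassium channels but carry other symbols were read from a list of 15, of which 11 were measured. Of these 1 rose and 3 fell (36.4% called, against 21.6% of all genes), with a median of -0.16. Besides Abcc9, Lrrc52, a leucine-rich auxiliary subunit of BK-type channels, read 5.86, 5.37, 5.27 and 5.75 with Gadd45a plasmid, against 6.29, 6.61, 6.46 and 6.19 with control plasmid. Its groups did not overlap, and the change was -0.82 (SE 0.15, limma adjusted p = 0.00411). Dlg1, a scaffold that clusters Kv1 and Kir2 channels at the membrane, changed by -0.26 (SE 0.06, limma adjusted p = 0.0204), and the actin-binding Cttn by 0.33 (SE 0.08, limma adjusted p = 0.0182). Dlg1 was called in 6 and Cttn in 7 of the 12 fits with arrays left out, with adjusted p up to 0.103 and 0.0989; both lost the call without each pair of same-numbered arrays, Dlg1 also without Gadd45a 3 or Gadd45a 4, and Cttn also without Gadd45a 1. The Kv4 partners Dpp6 and Dpp10 read -0.04 and -0.07, and the Kv2 partner Amigo1 read 0.17; none of these passed.

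**Figure D4:**
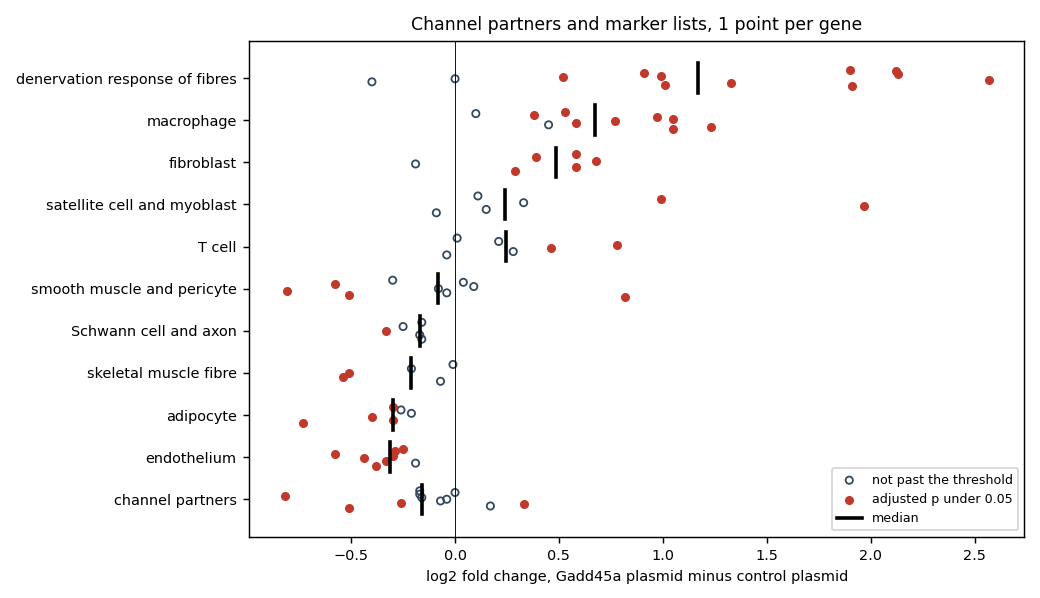
Change in log2 units, Gadd45a plasmid minus control plasmid, of channel partners and of marker genes of fibres and other cell types, with 1 point per gene (filled where the adjusted p was under 0.05) and a bar at each list's median. The medians run from 1.17 for the denervation response and 0.67 for macrophages to -0.31 for endothelium, with the channel partners at -0.16.

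Of the 59 channel genes that were not called, 52 had a negative and 7 a positive value, and values ran from -0.73 to 0.37. Counting called genes as well, 64 of the 73 channel genes (87.7%) had a negative value, against 60.1% of all genes. Below the receptor percentile it was 90.6% of channel genes and 74.2% of all genes, and at or above it 80% of channel genes and 48.6% of all genes. The count of 64 fell to 56 after quantile normalization and 53 after cyclic loess. How many of all genes were negative after these scalings was not counted. Medians of the brighter channels were then -0.20 and -0.19, against -0.01 and -0.00 for all genes as bright. Those of the dim channels were -0.08 and -0.06, against -0.03 and -0.02 for all dim genes. The median SD within a group was 0.14 with Gadd45a plasmid and 0.15 with control plasmid for the channel genes, and 0.12 with Gadd45a plasmid and 0.13 with control plasmid for all genes. Of the fast-fibre and contractile markers 5 of 9 were measured, and 2 of these fell, the creatine kinase gene Ckm by 0.51 and the fast-fibre actinin gene Actn3 by 0.54; the list mean was 11.39 to 11.46 with Gadd45a plasmid and 11.61 to 11.76 with control plasmid. The part of a change in fibre RNA in the values of Kcna7, Kcnc1, Kcnj2, Kcnj12 and Kcnj11 was not tested. Of 6 satellite cell and myoblast markers 2 rose and 0 fell. Those that rose were Myog, which is also in the denervation list, and Mymk. Pax7, Myf5, Myod1 and Cdh15 did not pass. Of 6 fibroblast markers 5 rose and 0 fell, and of 6 adipocyte markers 0 rose and 4 fell. Of 5 measured Schwann cell and axon markers 0 rose and 1 fell (20% called). Beside these lists and the fibre markers, 21.6% of all genes were called, 11.1% higher and 10.5% lower.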

How the data were processed

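RNA of 8 muscles was measured, 4 with Gadd45a plasmid and 4 with control plasmid, grouped by sample title. The RNA was isolated with TRIzol, and NuGEN kits made biotin-labelled cDNA from it, per the labels' protocols. Each deposited value is a log2 intensity of a probe set on an array, and GCOS, RMA and the build mm9 are named in the submitters' processing notes, without versions. RMA corrects background and quantile-normalizes arrays, and small changes of dim probe sets come out compressed. The medians of the deposited arrays still differed, from 5.85 to 5.92. A further quantile normalization of the deposited values moved the median change of the dim channel genes from -0.17 to -0.08. The arrays' number limits the precision of every value.

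Of 16755 probe sets, 14996 had 1 symbol, 1019 several and 740 none listed; genes were named from the first kind. All 73 members were found by gene ID in a RefSeq table of GRCm38.p6, used for names, overlaps and promoters; since that build differs from mm9, no other coordinates are given. The deposited log2 values were tested two-sided with lmFit and eBayes of limma 3.58.1, run in R 4.3.3, without a term for the sample number. The fit was tested on simulated data. Members and lists were chosen with earlier results of these data known. Named were every called member, the brightest of each class, a list of channels known in muscle (Kcna7, Kcnc1, Kcnc4, Kcnh2, Kcnj2, Kcnj12, Kcnj11, Kcnma1, Kcnn3 and Kcne3; another is not reported here), second probe sets, called partners and Gadd45a; other names were chosen after their values were seen. Alternatives are given in the closing section.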

Additional observations from a re-analysis of the deposited data

How the results depend on the processing

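Over the 24 single genes or probe sets tested by name and 21 other fits, no call changed sign. The 2 channel genes called higher, Kcnn3 and Kcnrg, were called in all 21, and the count called lower was 12 with all arrays, 5 to 11 in the 12 fits with arrays left out (8 single arrays, 4 same-numbered pairs) and 5 at an adjusted p under 0.01. It was 7 without Gadd45a 4, and 5, 6 and 6 without the arrays numbered 2, 3 and 4. The median change of channel genes was -0.18, with -0.12 after quantile normalization, -0.10 after cyclic loess (chosen after seeing the data) and -0.21 to -0.14 with arrays left out. Without probe sets below the median brightness 18 channel genes remained, and the median of this smaller set was -0.25. The median of all probe sets was -0.06, with 0.02 and 0.01 after leaving out probe sets below the median brightness or below the receptor percentile. Over the whole array 3542 probe sets changed, 1814 higher and 1728 lower; with arrays left out these counts ran from 1876 to 3174, 1055 to 1666 and 821 to 1516, and at an adjusted p under 0.01 they were 1630, 944 and 686. Gadd45a ran from 2.49 to 2.62 with arrays left out. Cyclic loess ended the calls of Kcne4, Kcnip1, Kcnmb2 and Kcnj11, as did quantile normalization; the cause was not tested.

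With the sample number as a replicate block, 3171 probe sets changed, 1639 higher and 1532 lower, and 2 channel genes were called higher and 10 lower, with a median of -0.18 and Gadd45a at 2.57. The block ended the calls of Kcnip1 (adjusted p = 0.0624), Kcnj11 (0.0814) and Kcnmb2 (0.076) and added Kcnj14 and the second probe set of Kcnc1 (0.0498). The deviations of same-numbered arrays from their group means correlated at 0.05, 0.05, 0.09 and 0.10 for numbers 1 to 4, each the highest for that array, a hint from the data and not the design; the labels do not say that a number marks a mouse.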
